A study of Mus musculus with 15 samples.

Results

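Complement components and regulators form a group of genes here in the 21EM15 line, an immortalized mouse lens epithelial cell line: *C1ra*, *C1s1*, *C4b*, *C3*, *Serping1*, *Cd55* and *Cd59a*. The members were matched by symbol, and 5 of the 7 were measured in both data sets, which hold 11677 genes for the cultures and 11299 for the microdissected regions. *Serping1* and *Cd55* were not analysed here. The members were chosen with earlier results of the same log2 CPM values known, that is, selected on values of the 3D against 2D and internal against external comparisons, so their values below are a description and carry no test. CPM values are reads scaled to the size of the library.

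The samples were wild-type (WT) 21EM15 cells with no other treatment named in the labels. They comprised 4 conventional 2D cultures, 4 cultures of 3D spheroids, and, by laser capture microdissection of spheroids, 4 samples of the internal and 3 of the external region. The study set aside a further external sample that lay apart from the others on principal components. That sample was not analysed here, so the spread of the external group is that of retained samples. All came from a single line. By the study's methods, each replicate was made from its own dish of 2D cells or its own pool of spheroids, but neither the methods nor the labels state that these were independently grown or that regions with the same number came from the same spheroids, so p-values measure only the spread between these samples, which may be technical. RNA was extracted with a Nucleospin kit from the cultures and with an Arcturus PicoPure kit from the regions. The cultures and regions were normalized separately, so no test was made across them.

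The 2D samples held 7305053 to 9362587 reads and the 3D samples 7727642 to 8364276. The external samples held 4044230 to 6086089 reads and the internal samples 4256391 to 11702504. The smallest signal considered, 3 reads, corresponded to 0.312 to 0.409 CPM in the cultures and to 0.248 to 0.802 CPM in the regions. Intervals and limits from reads cover counting error only. They do not cover the spread between samples, nor PCR copies of 1 molecule, which cannot be told apart. The 2D replicate 3 stood apart in having 190 of the 11677 genes of its table at 0 reads, whereas the remaining 2D samples had 21 to 68, and calls of named genes that change without it are stated. In samples of this kind, fewer cells of a type and less RNA per cell cannot be told apart.

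Complement is a cascade of proteins that tags and lyses cells and particles. In the classical pathway, C1q bound to a target activates the proteases C1r and C1s, C1s cleaves C4 and C2 to build a convertase, and the convertase cleaves C3, from which the terminal components assemble a pore in the membrane. Host cells are protected by C1 inhibitor (*Serping1*), by CD55, which speeds the decay of convertases, and by CD59, which blocks the pore. The liver makes most circulating complement, but epithelial cells and fibroblasts also transcribe early components, and inflammatory cytokines acting through STAT, NF-κB and C/EBP factors are known inducers of several of them.

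The 5 measured members lie at 4 places of the genome (GRCm38, GENCODE vM21). *C1ra* (chromosome 6, 124512405 to 124523443, plus strand) and *C1s1* (chromosome 6, 124530345 to 124542359, minus strand) are 6902 bp apart and face each other with their 3′ ends. *C1rl* lies 1762 bp on the other side of *C1ra*, and *C1rb* lies 27935 bp beyond *C1s1*. *C4b* (34728380 to 34743882, minus strand) and *C3* (57203970 to 57228136, minus strand) are both on chromosome 17, and *Cd59a* is on chromosome 2 (104095801 to 104115354, plus strand). Reads came from the 3′ ends of transcripts, where 133 of 251 windows of 50 nt in the last 300 nt of *C4b* also occur in *C4a*. Up to 131 of 251 windows of *C1s1* occur in *C1s2*, depending on the transcript. No such window was found for *C1ra*, *C3* or *Cd59a*. Uniquely mapped reads were counted, so the levels of *C4b* and *C1s1* are uncertain on this account.

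The promoters of the measured members are shown because 4 of the 5 members had higher values in both the 3D and the internal samples. Each window spans 250 bases before to 50 bases after the annotated start (RefSeq, GRCm38.p6), is written 5′ to 3′ in the direction of the gene, and has matches to the searched motifs in capitals. *C4b* is named only.
C3, chr17:57228087-57228386, minus strand: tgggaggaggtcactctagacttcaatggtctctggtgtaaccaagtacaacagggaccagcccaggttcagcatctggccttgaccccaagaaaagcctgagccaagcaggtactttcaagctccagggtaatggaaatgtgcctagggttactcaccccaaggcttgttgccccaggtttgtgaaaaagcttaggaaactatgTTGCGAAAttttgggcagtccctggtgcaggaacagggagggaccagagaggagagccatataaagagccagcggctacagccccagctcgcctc
C1ra, chr6:124512371-124512670, plus strand: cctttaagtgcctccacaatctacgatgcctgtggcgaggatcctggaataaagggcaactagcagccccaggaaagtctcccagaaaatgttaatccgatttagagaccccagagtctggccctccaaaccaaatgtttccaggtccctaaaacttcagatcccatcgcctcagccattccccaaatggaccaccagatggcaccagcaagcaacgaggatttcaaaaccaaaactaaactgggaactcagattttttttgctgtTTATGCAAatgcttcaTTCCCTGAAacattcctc
C1s1, chr6:124542310-124542609, minus strand: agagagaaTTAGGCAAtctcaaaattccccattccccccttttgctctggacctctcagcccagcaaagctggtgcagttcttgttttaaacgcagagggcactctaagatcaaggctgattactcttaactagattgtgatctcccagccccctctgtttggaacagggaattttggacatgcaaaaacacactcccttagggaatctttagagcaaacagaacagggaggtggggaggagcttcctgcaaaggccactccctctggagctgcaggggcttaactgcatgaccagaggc
Cd59a, chr2:104095551-104095850, plus strand: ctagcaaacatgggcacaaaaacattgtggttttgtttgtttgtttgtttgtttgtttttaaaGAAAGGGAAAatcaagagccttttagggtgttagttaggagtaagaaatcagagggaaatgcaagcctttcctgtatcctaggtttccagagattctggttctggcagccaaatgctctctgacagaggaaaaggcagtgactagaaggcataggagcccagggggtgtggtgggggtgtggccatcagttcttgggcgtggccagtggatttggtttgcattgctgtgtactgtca
The motifs, searched on both strands, were a GAS motif bound by STAT factors (TTCNNNGAA, in 8.30% of 32851 promoter windows), an ISRE-like motif (GAAA and GAAA with 2 bases of any kind between them, 3.44%), a C/EBP-like motif (TTNNGCAA, 10.8%) and an NF-κB-like motif (GGG and TTTCC with 2 bases between them, 1.63%). The capitals mark a C/EBP-like match in *C3*, starting 45 bases before the start site. In *C1ra* they mark a C/EBP-like match and then a GAS match, starting 16 and 32 bases after it, which do not overlap. The RefSeq start of *C1ra* (124512621) lies 216 bases inside the gene as GENCODE annotates it, so most of this window is not upstream of the GENCODE gene. They mark a C/EBP-like match in *C1s1*, 242 bases before the start, which a second annotated window of this gene does not include, and an ISRE-like match in *Cd59a*, 187 bases before it. These matches are a description of letters in the windows and not of binding.

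Growth as 3D spheroids was compared with 2D culture first. By the study's methods, 2D dishes were collected before full confluence, usually after a shorter culture than the spheroids. Time in culture thus differed together with 3D growth and cannot be told apart from it here. *C4b*, *C1ra*, *C1s1* and *Cd59a* had all 4 of their 3D values above all 4 of their 2D values, whereas *C3* did not. A gene was called at an adjusted p under 0.01 in limma and a log2 fold change beyond 1. Of the 5 members, 1 was called as higher in 3D (*C4b*), and over all genes tested 2.92% were called higher and 1.51% lower. The groups did not overlap for 4 of the 5 members and for 24.0% of all genes. Since the members were chosen with this contrast known, nothing is read from these shares.

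*C1ra*, the protease that activates C1s within the C1 complex, had 6.70, 9.01, 14.2 and 2.29 CPM in the 2D replicates 1 to 4 and 23.5, 23.3, 36.6 and 40.02 CPM in the 3D replicates. The lowest 3D sample was above the highest 2D sample, and the 2D replicate 4 was lowest. The log2 fold change was 2.12 (standard error, SE, of 0.46, 95% interval 1.10 to 3.13). *C1ra* was not called, but it was called without the 2D replicate 2 or without the 2D replicate 3. It was also called at an adjusted p under 0.05, with a replicate block, with log2(CPM + 1) values and with limma voom on the reads.

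*C1s1*, the protease that cleaves C4 and C2, had 64, 10, 56 and 0 reads in the 2D replicates 1 to 4. It had 150, 118, 233 and 222 reads in the 3D replicates. The groups did not overlap, but the 2D samples were spread widely, from no read in the replicate 4 to a level in the replicate 1 equal to that of *C1ra*. The log2 fold change of 3.43 therefore had a large standard error, 0.90, with an interval of 1.43 to 5.43. The gene was not called, although it was at an adjusted p under 0.05. Its log2 fold change was 2.39 without the 2D replicate 4 and 4.01 without the 2D replicate 1, and it was not called in either case.

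*C4b*, which encodes the C4 protein cleaved by C1s, had 1, 2, 0 and 3 reads in the 2D replicates 1 to 4 and 50, 113, 233 and 217 reads in the 3D replicates. On the CPM scale the 3D values were 6.38, 14.0, 30.3 and 26.9, and the 2D values were between 0 and 0.312, at or under the limit of 3 reads. The 2D and 3D values were thus far apart, and the 3D replicate 1 was the lowest of its group. The 3D mean was 4.06 ± 1.01 and the 2D mean -1.35 ± 0.56 log2 CPM (SD, n = 4 each), with a log2 fold change of 5.42 (SE 0.52). This value depends on the prior count of the log2 values. Pooled over the samples, 613 reads against 6 gave a ratio of 113 (exact 95% interval 51.6 to 309). This interval covers counting error only and not the spread between samples. *C4b* was called in all 8 fits that left out 1 sample, with log2 fold changes from 5.13 to 5.86, but not with limma voom, where the log2 fold change was 6.49.

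*C4a*, the neighbouring C4 paralog with which *C4b* shares 3′ sequence, had 5 to 20 reads in 2D and 14 to 26 in 3D. Its log2 fold change was 0.79 (SE 0.46, limma adjusted p = 0.256), or 0.51 without the 2D replicate 3, and it was not called. *C2*, the partner of C4 in the convertase, had a log2 fold change of -0.21 (limma adjusted p = 0.719).

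*C3*, the central component of all complement pathways, had 33, 8, 0 and 1 reads in the 2D replicates 1 to 4 and 11, 5, 10 and 10 reads in the 3D replicates. The 2D replicates 1 and 3 lay on either side of all the 3D samples, so the groups overlapped. The 2D mean was 1.16 ± 1.61 CPM and the 3D mean 1.14 ± 0.35 CPM (SD, n = 4 each). On the log2 scale the fold change was 0.75 with a standard error of 0.80 and an interval of -1.03 to 2.52, and the gene was not called. It was 1.48 without the 2D replicate 1, 0.17 without the 2D replicate 3 and 0.34 without the 2D replicate 4.

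*Cd59a*, which encodes the membrane protein that blocks pore assembly, had 27.9, 25.8, 30.6 and 13.4 CPM in the 2D replicates 1 to 4. It had 49.4, 37.5, 45.2 and 39.8 CPM in the 3D replicates. The groups did not overlap, with the 2D replicate 4 lowest, and the shift was the smallest of the 4 members that did not overlap. This gave a log2 fold change of 0.87 (SE 0.25, interval 0.32 to 1.41), below the threshold of 1.

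**Figure D1:**
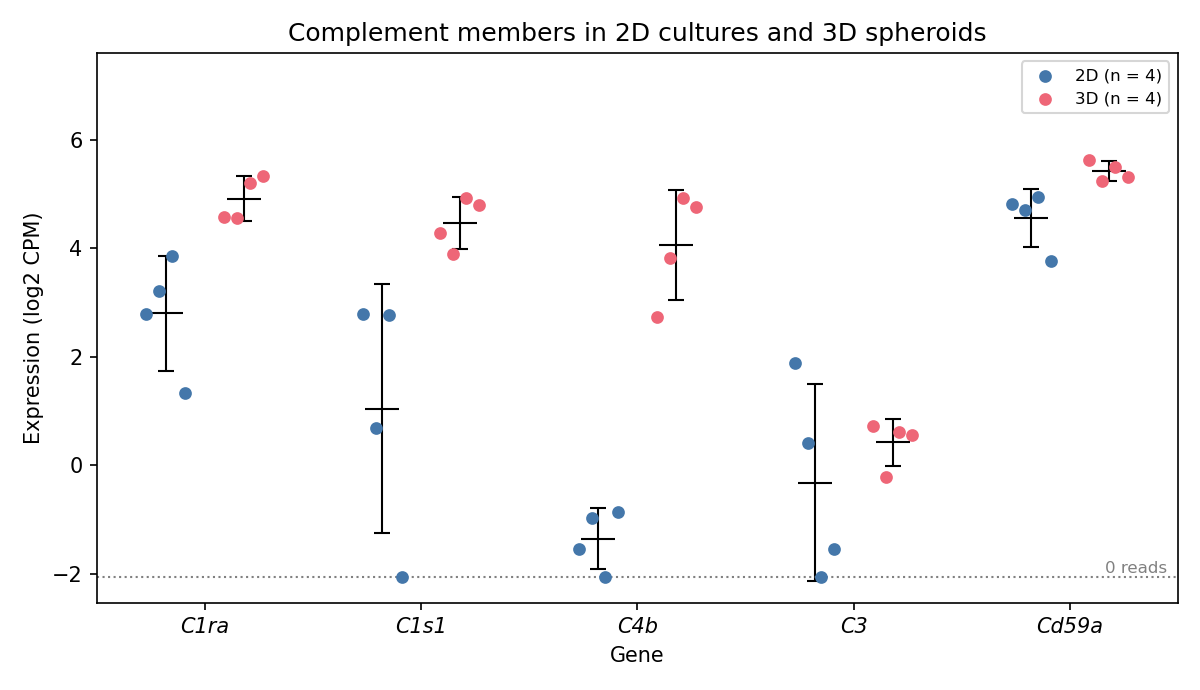
Expression in log2 CPM of the 5 measured members in each 2D and 3D sample (n = 4 each), with the mean and SD as black bars and the value of 0 reads as a dotted line. The 3D samples sit above all the 2D samples for *C1ra*, *C1s1*, *C4b* and *Cd59a*, and within the range of the 2D samples for *C3*.

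In the 3D samples the mean levels, from reads that do not scale with transcript length, ran from *Cd59a* with 43.0 CPM to *C1ra* with 30.9, *C1s1* with 22.9, *C4b* with 19.4 and *C3* with 1.14. Among the first 4, the ranges of neighbours in this order overlapped. *C3* lay below all of them in all 4 samples.

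The internal region was then compared with the external region of the spheroids. All 5 members had a higher mean in the internal region, and the internal samples were all above the external samples for *C1ra*, *C1s1*, *C4b* and *Cd59a*, but not for *C3*. Of the 5 members, 3 were called as higher internally (*C1ra*, *C1s1* and *Cd59a*), while over all genes 3.27% were called higher and 4.35% lower. The groups did not overlap for 4 of the 5 members and for 29.0% of all genes. Nothing is read from these shares, as the members were chosen with this contrast known too.

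*C1ra* had 25.4, 26.8 and 18.4 CPM in the external replicates 1 to 3 and 42.0, 57.4, 50.6 and 58.9 CPM in the internal replicates 1 to 4. The groups were apart with little spread within each, and the external replicate 3 was lowest. The difference was 1.15 on the log2 scale (SE 0.23). Without the external replicate 3 it was 0.98 and the gene was not called, nor was it called without a variance trend.

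*C1s1* had 19.4, 10.2 and 1.6 CPM in the external replicates 1 to 3 and 27.6, 40.6, 28.6 and 37.1 CPM in the internal replicates. The internal samples were close to each other, whereas the external samples differed more than 10-fold and the replicate 3, with 6 reads, was lowest. The difference was 2.18 on the log2 scale (SE 0.50), or 1.21 without that sample. The call was lost without it, without a variance trend, with a robust prior and with limma voom.

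*C4b* had 20.1, 18.1 and 29.1 CPM in the external samples and 30.3, 37.6, 37.8 and 65.4 CPM in the internal samples. The lowest internal sample was just above the highest external sample, and the internal replicate 4 was highest. The log2 fold change was 0.89 (SE 0.28, interval 0.32 to 1.46), below the threshold of 1. *C4a* had a log2 fold change of the opposite sign, -1.02 (SE 0.70, limma adjusted p = 0.326), or -0.51 without the external replicate 2, with 10 to 41 reads externally and 6 to 50 internally.

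*C3* had 41, 4 and 1 reads in the external replicates 1 to 3, corresponding to 6.75, 0.87 and 0.27 CPM. In the internal samples it had 61, 60, 23 and 136 reads, or 9.15, 6.93, 5.27 and 11.2 CPM. The external replicate 1 lay within the internal range and the other 2 external samples far below it. The log2 fold change was 2.28 with a standard error of 0.71, and the gene was not called, although it was at an adjusted p under 0.05. Without the external replicate 1 the log2 fold change was 3.31 and *C3* was called, whereas without the external replicate 3 it was 1.5 and, as in the other 5 fits that left out 1 sample, not called.

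*Cd59a* had 32.6, 20.02 and 31.0 CPM in the external replicates and 65.8, 76.6, 72.6 and 72.9 CPM in the internal replicates. The internal values were within 0.22 log2 CPM of each other and all well above the external ones. The means were 6.17 ± 0.09 log2 CPM internally (SD, n = 4) and 4.78 ± 0.38 externally (SD, n = 3), with a log2 fold change of 1.39 (SE 0.22). *Cd59a* was called in all 7 fits that left out 1 sample, with log2 fold changes from 1.17 to 1.52.

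**Figure D2:**
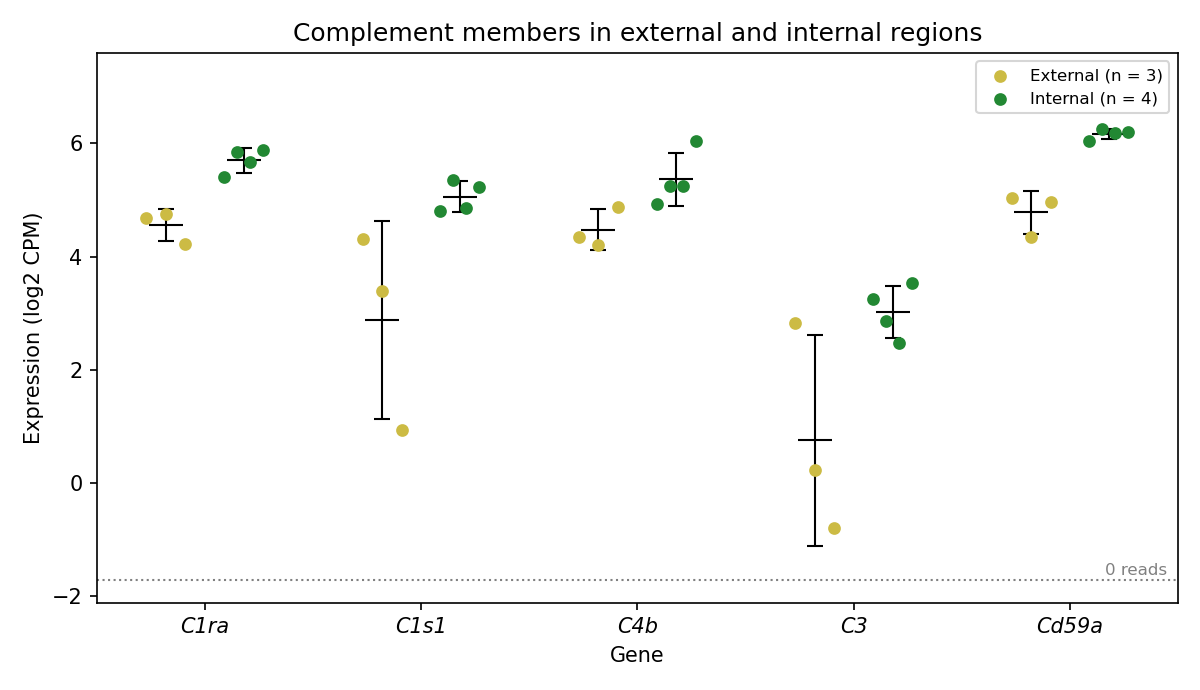
Expression in log2 CPM of the 5 measured members in each external (n = 3) and internal (n = 4) sample, with the mean and SD as black bars and the value of 0 reads as a dotted line. The internal samples sit above all the external samples except for *C3*, where 1 external sample lies within the internal range.

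*C1ra* and *C1s1* act as partners in 1 complex, and their levels were set against each other within each sample. The log2 CPM of *C1s1* minus that of *C1ra* was 0.00, -2.53, -1.08 and -3.40 in the 2D replicates 1 to 4 and between -0.67 and -0.27 in the 3D samples. It was -0.38, -1.36 and -3.30 in the external replicates 1 to 3 and between -0.82 and -0.49 in the internal samples. *C1s1* was thus at or under *C1ra* in all 15 samples, and the difference varied over at most 0.40 log2 units in the 3D and the internal samples. As *C1s1* shares 3′ sequence with *C1s2*, uniquely mapped reads may understate it, so this order is one of counted reads. The lowest 2D value, -3.40, rests on 0 reads of *C1s1* and is set by the prior count, and the lowest external value rests on 6 reads.

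Across the 15 samples, with each data set centred on its own mean per gene, *C1ra* and *C1s1* had a Pearson correlation of 0.918. It was 0.818 for *C1ra* and *Cd59a*, 0.80 for *C1s1* and *Cd59a* and 0.774 for *C4b* and *C1ra*. *C3* followed *C4b* least, with 0.273. These values include the differences between groups and share the same libraries, so they are given as a description. Among 9919 genes with at least 2 log2 CPM in a group of each data set, the pattern of *C4b* was most like those of *Camk1g* (0.956), *Ass1* (0.954) and *Porcn* (0.951). That of *C1ra* was most like *Maf1* (0.971), *Car11* (0.958) and *Eid1* (0.95), that of *C1s1* like *Arrdc3* (0.945), *Selenop* (0.938) and *Gadd45a* (0.924). *Cd59a* was most like *Plscr4* (0.949), *Ablim1* (0.935) and *Snrk* (0.933), and *C3* like *Rcor3* (0.893), *Msi2* (0.877) and *Rpp38* (0.850).

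The other genes of the pathway were taken from a list of 59 complement genes that includes the members. In the cultures 22 of them were tested, of which 2 rose in 3D (*C4b* and *Clu*) and none fell, against 2.92% of all genes called higher and 1.51% lower. Without the members 1 of 17 rose. The median log2 fold change was 0.39, against -0.03 over all genes, and it was 0.13 for the 17 genes that are not members, of which 6 had an unadjusted p under 0.05, as did 33.7% of all genes of the cultures. In the regions 19 were tested, of which 5 rose internally (*C1ra*, *C1rl*, *C1s1*, *Clu* and *Cd59a*) and 2 fell (*Masp1* and *C3ar1*), against 3.27% of all genes called higher and 4.35% lower. Without the members 2 of 14 rose and 2 fell. The median was 0.98 against 0.04 over all genes, and 0.37 for the 14 that are not members. Of these 14, 7 had an unadjusted p under 0.05, as did 33.6% of all genes. The complement list was also chosen with earlier results of these data known, so nothing is read from its shares. The 3 C1q chains and the 7 terminal pathway genes of the list were not analysed here.

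*C1rl* and *C1rb*, the neighbours of *C1ra* and *C1s1* that encode a C1r-like protease and a second C1r, had 16 to 96 and 0 to 2 reads in 2D and 99 to 184 and 5 to 18 reads in 3D. The 3D samples were above all the 2D samples for both genes. Their log2 fold changes of 1.64 and 1.77 were not called (limma adjusted p = 0.0448 and 0.0459). In the regions *C1rl* rose internally by a log2 fold change of 1.5 (SE 0.30, limma adjusted p = 0.000755), a call that was lost without a variance trend. *C1rb* had 8, 0 and 8 reads externally and 24 to 77 internally, with a log2 fold change of 2.34 that was not called (limma adjusted p = 0.0308) and was 1.44 without the external replicate 2, and 166 of the 251 windows at its 3′ end also occur in *C1ra*.

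*Clu*, which encodes clusterin, a soluble chaperone that also binds terminal complement complexes, had 17 to 40 reads in 2D and 243 to 411 in 3D. It rose in 3D by a log2 fold change of 3.82 (SE 0.28, limma adjusted p = 0.000115) and internally by 2.11 (SE 0.19, limma adjusted p = 3.2e-08). Both calls held in every fit that left out 1 sample. Clusterin and *Cd59a* are both known to act on the terminal step, whose own components were not analysed here.

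*Masp1*, a protease of the lectin pathway, went the other way in the regions. It had 48.6, 77.03 and 58.8 CPM externally and 14.7, 10.6, 5.27 and 11.9 CPM internally, so that the external samples were all higher. Its log2 fold change was -2.56 (SE 0.33, limma adjusted p = 3.97e-06), while it was -0.16 between 3D and 2D (limma adjusted p = 0.562). *C3ar1*, the receptor for the C3a fragment, had 42, 27 and 22 reads externally and 0 reads in all 4 internal samples, and its mean was at least 14.4-fold lower internally, taking 3 reads per library as the limit. It was called as lower (limma adjusted p = 0.0021), but not when any of the 3 external samples was left out, nor under the replicate block. Between 3D and 2D it had 20 to 59 and 81 to 105 reads, with a log2 fold change of -1.06 (limma adjusted p = 0.0384) that was not called.

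The membrane regulators other than *Cd59a* were not called in either comparison at the thresholds above. *Cd46* had log2 fold changes of -0.85 in 3D and 1.37 internally (limma adjusted p = 0.199 and 0.172), the latter being 0.67 without the external replicate 1. *Cr1l*, which encodes the rodent regulator Crry, was the more abundant, at 61.2 ± 13.5 CPM in the 2D and 66.9 ± 7.96 CPM in the 3D samples (SD, n = 4 each), and had log2 fold changes of 0.15 and 0.16. *Csmd1* had 1.42 in 3D (limma adjusted p = 0.0412) and -0.38 internally, a value that turned to 0.20 without the external replicate 1. *Csmd3* had -0.39 and 1.6 (limma adjusted p = 0.012 for the latter). *Csmd3* was called internally with a robust prior, at an adjusted p under 0.05, with log2(CPM + 1), and without the external replicate 3 (2.07) or the internal replicate 4 (1.83).

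**Figure D3:**
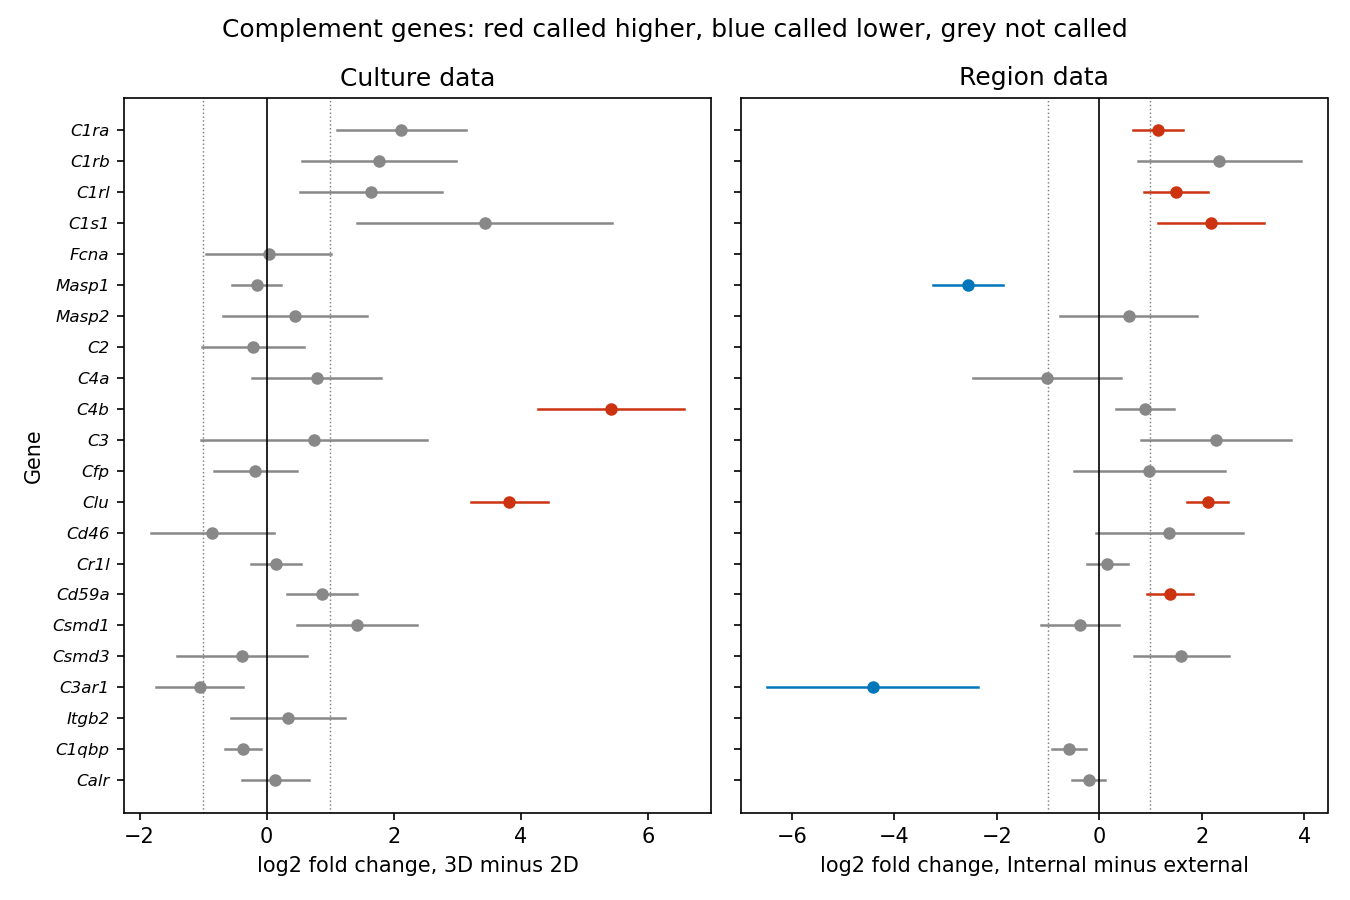
Log2 fold change with its 95% interval of each tested complement gene, 3D minus 2D on the left and internal minus external on the right, with dotted lines at -1 and 1. Red marks genes called higher and blue genes called lower. *C4b* and *Clu* are called in the cultures, and 5 genes higher and 2 lower in the regions.

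Genes of the cytokine signalling known to induce complement, and 2 feedback genes (*Socs1* and *Socs3*), were described from a list of 33. The list held 8 cytokines, 10 receptors, 3 kinases, 10 transcription factors and the 2 feedback genes. In the cultures 26 were tested, 5 rose in 3D (2.92% of all genes did) and none fell, and 15 had an unadjusted p under 0.05 (33.7% of all genes did). Over the 26 genes the median difference was 0.66 on the log2 scale, against -0.03 over all genes. *Cebpd*, a C/EBP factor of the acute phase response, had 155 to 753 reads in 2D and 1738 to 2261 in 3D, a log2 fold change of 2.79 (limma adjusted p = 0.00193). The oncostatin M receptor gene *Osmr* rose by 2.76, *Irf9* by 1.95, *Relb* by 1.74 and *Stat3* by 1.30. Of the 8 cytokines, which include the oncostatin M gene *Osm*, only *Lif* was tested, and in the cultures alone. *Lif* had 0 to 27 reads in 2D and 2 to 14 in 3D and was not called. The calls of *Relb* and *Stat3* held in all 8 fits that left out 1 sample, while that of *Cebpd* was lost in 2 (without the 3D replicates 3 or 4), that of *Osmr* in 4 (without any of the 3D samples) and that of *Irf9* in 7 (all but that without the 2D replicate 2). *Irf9* was not called without a variance trend or with a robust prior either. In the regions 25 were tested and 0 were called by limma, against 3.27% of all genes called higher and 4.35% lower. An unadjusted p under 0.05 was found for 6 (33.6% of all genes), and limma voom also called 0. The median there was 0.30, against 0.04 over all genes. The cytokine signalling list was chosen with earlier results of these data known, so nothing is read from its shares. Whether these genes have a part in the values of the members was not tested.

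**Figure D4:**
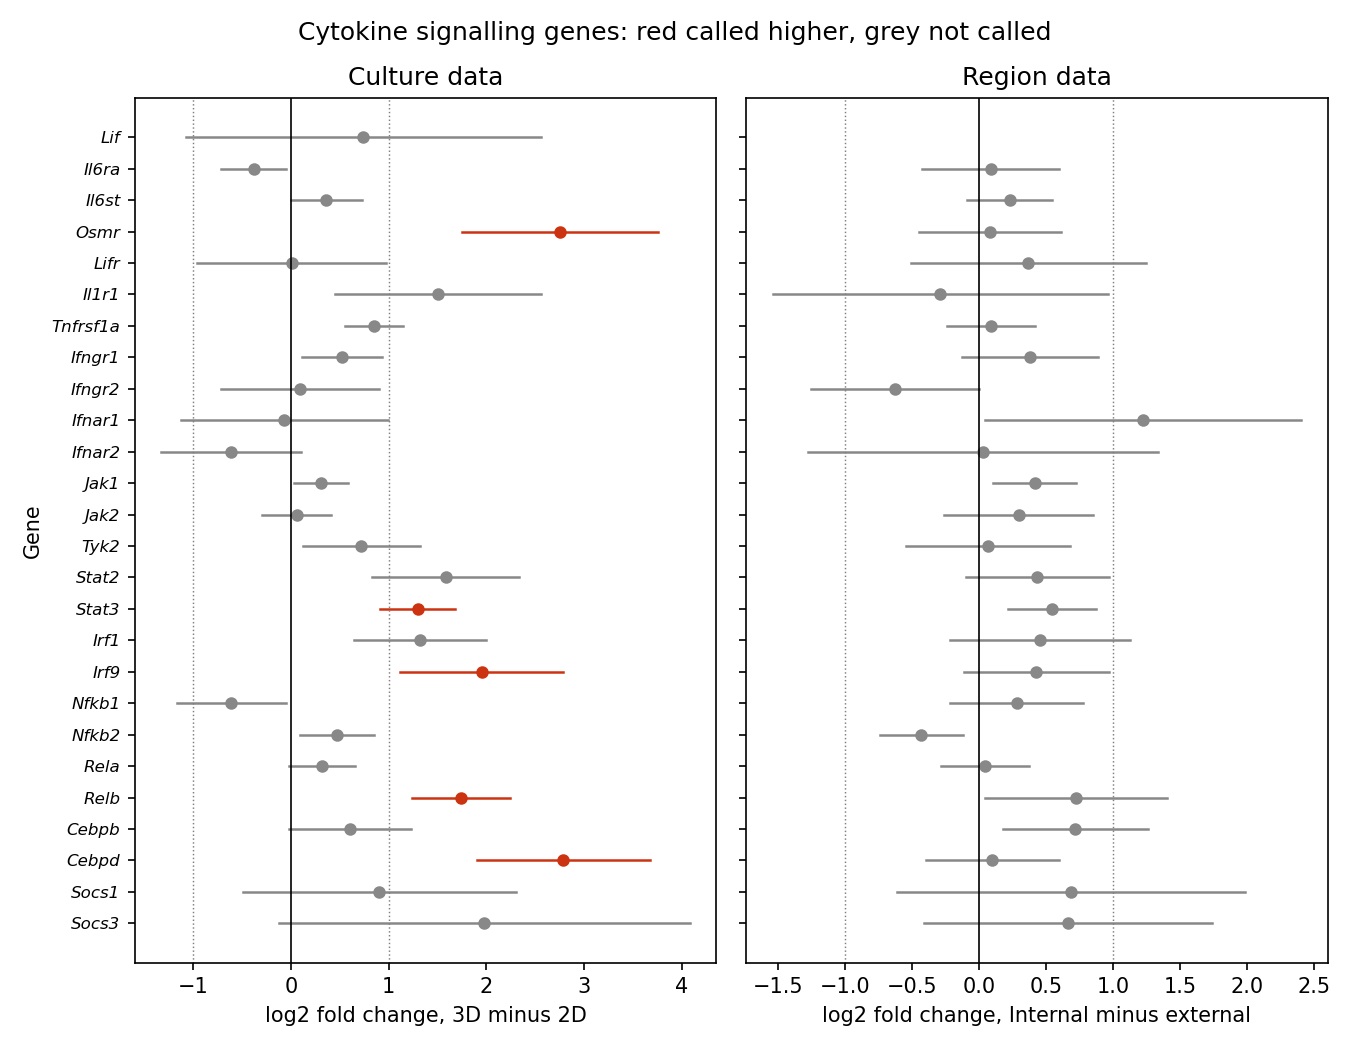
Log2 fold change with its 95% interval of the tested cytokine signalling genes, 3D minus 2D on the left and internal minus external on the right, with dotted lines at -1 and 1. Red marks the 5 genes called higher in 3D, and no gene is called in the regions.

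The nearest measured genes outside the complement list were also compared. *Gpr108*, next to *C3*, had a log2 fold change of 1.08 in 3D (limma adjusted p = 0.00716), which was lost in 7 of the 8 fits that left out 1 sample (all but that without the 2D replicate 2) and without a variance trend. *Tnxb*, next to *C4b*, had 2.89 internally (limma adjusted p = 0.00831) but 0.05 in 3D. The regional value of *Tnxb* ran from 2.04 to 3.5 with 1 sample left out. Its call was lost in 5 of the 7 such fits (all but those without the external replicate 1 or the internal replicate 3), without a variance trend and with limma voom or the block. *A930018P22Rik*, 7415 bp from *Cd59a*, was analysed in the regions alone, with a log2 fold change of 1.86 that was not called (limma adjusted p = 0.385) and was 1.21 without the internal replicate 3. *Fbxo3*, 32561 bp on the other side of *Cd59a*, had -0.03 and 0.06, and *Gm11110*, the other neighbour of *C3*, had 0.04 and -0.07.

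Lens genes, not all of them of the epithelium, were measured beside these values. The study names *Prox1*, *Maf* and *Hsf4* among genes expressed in lens fiber cells. Of 18 lens genes, 7 were tested in the cultures, where *Dkk3* rose in 3D by 2.39, a call lost without the 2D replicate 4 or any of the 3D samples, without a variance trend and with a robust prior, and 9 in the regions, where *Prox1* (1.45), *Maf* (1.25) and *Hsf4* (3.03) rose internally. The call of *Hsf4* was lost without the external replicate 1 or the internal replicates 1 or 4, with limma voom or the block, and, like that of *Maf*, without a variance trend. With 1 sample left out, the value of *Hsf4* ran from 2.22 to 3.44. In the cultures *Prox1* had 330, 327, 1 and 355 reads in the 2D replicates 1 to 4 and 562 to 745 in 3D. Its log2 fold change was 2.84 and not called, but 1.15 and called without the 2D replicate 3. *Pax6* had 349 to 566 reads in 2D and 493 to 816 in 3D, or 50.3 ± 7.82 and 81.9 ± 16.8 CPM (SD, n = 4 each). Its log2 fold change of 0.69 was not called (limma adjusted p = 0.0246), and neither was that of 0.65 in the regions, below the threshold of 1 (limma adjusted p = 0.00601). The log2 fold changes of all 7 lens genes tested in the cultures and of all 9 tested in the regions were above 0. An unadjusted p under 0.05 was found for 6 of the 7 and for 9 of the 9, against 33.7% and 33.6% of all genes. The lens list was chosen with earlier results of these data known, and the study names several of its genes from them. Nothing is therefore read from these shares. Whether the lens genes have a part in the values of the members was not tested. *Cryaa* and *Foxe3* were not analysed here. Leukocytes are a common source of complement, and of 12 of their markers 1 was tested in the cultures (*Cd68*) and 2 in the regions (*Cd68* and *Csf1r*), none of them called. *Cd68* had 0.624 to 1.64 CPM in 2D and 0.383 to 1.17 in 3D. The sum of both markers was 2.06 to 8.20 CPM internally and 0.165 to 10.01 externally, so the groups overlapped.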

How the data were processed

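RNA from 15 samples of 21EM15 cells was profiled by QuantSeq 3′ end sequencing. According to the methods and the submitters' processing notes, the authors aligned reads with STAR 2.7.8a to GRCm38.p6, counted uniquely mapped sense reads with featureCounts 1.6.0, removed genes of low CPM and deposited log2 CPM values per sample in 2 separately normalized tables. Their fold changes, p-values and adjusted p-values were also deposited and were not used. Whole reads were recovered from the spacing of the log2 values (100% of values within 0.05 reads, prior of 2 reads on average).

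The members and lists were chosen with earlier results of these data known. All genes of a table were fitted with limma 3.58.1 (R 4.3.3, variance trend, two-sided, Benjamini-Hochberg adjustment, tested on simulated data) and called at a log2 fold change beyond 1 in either direction with an adjusted p under 0.01, as in the study's results (its methods give 0.05, used here as an alternative). A gene of the cytokine signalling list is not reported here. Named were the members, complement list genes, called cytokine signalling genes, lens and leukocyte markers, the nearest measured neighbours, and the 3 genes most alike to each member. Positions came from GENCODE vM21, which held 11676 of 11677 and 11298 of 11299 Ensembl IDs, and promoters from RefSeq, with an entry for 5 of 7 members. Each choice was varied alone: a replicate block, a robust prior, no variance trend, an adjusted p under 0.05, a mean of at least 2 log2 CPM, log2(CPM + 1), median-of-ratios scaling, limma voom and leaving out each sample. Alternatives for the cytokine signalling list and for named genes other than the members were added after seeing the data. Tables and plots were made in Python 3.11.15 with pandas 2.3.3 and numpy 2.4.6, plotting with matplotlib 3.10.9 and exact intervals with scipy 1.17.1.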

Additional observations from a re-analysis of the deposited data

Results flagged for a closer look

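*C3* in the 3D replicate 2 lay apart from the other 3D samples, at -0.22 log2 CPM with 5 reads against 10 or 11 reads in the others. The gap to its nearest neighbour was 0.838 of the range of the group, above Dixon's 95% critical value for 4 samples. It was the only value of a member that did so.

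Among the other genes of the complement, cytokine signalling, lens and leukocyte lists, 7 values passed the same limit. For *Prox1* these were the 2D replicate 3 (-1.49 log2 CPM, 1 read) and the 3D replicate 4 (6.13 log2 CPM). For *Crim1* they were the 3D replicate 4 (8 log2 CPM) and the internal replicate 3 (9.51 log2 CPM). The others were *Ifnar2* in the 3D replicate 4 (0.89), *Jak2* in the 3D replicate 2 (4.74) and *Socs1* in the 2D replicate 2 (0.08). In all, 8 of 166 groups of 4 values passed, and chance alone passes about 1 group in 20.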

How the results depend on the processing

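Among the alternatives run, no named fold change of a call turned its sign. In 3D against 2D, the 517 calls became 978 at an adjusted p under 0.05 and between 161 (without the 3D replicate 3) and 770 (without the 2D replicate 2) with 1 sample left out. The complement list had 2 calls, 8 at an adjusted p under 0.05, 1 when the mean had to reach 2 log2 CPM, where *C4b* was not tested, and 2 to 3 with 1 sample left out. The cytokine signalling list had 5 calls, 8 at an adjusted p under 0.05 and 2 to 6 with 1 sample left out. Between the regions, there were 861 calls, 324 without a variance trend and 649 to 850 with 1 sample left out. The complement list had 7 calls there, 4 without a variance trend and 5 to 8 with 1 sample left out, and the cytokine signalling list had 0, also at an adjusted p under 0.05. *C4b* in 3D had a log2 fold change of 3.92 with log2(CPM + 1).

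A replicate block gave 602 calls in the cultures and 655 in the regions, and 3 and 5 of the complement list, with 8 of the cytokine signalling list in the cultures. *C1ra* and *Maf* were then called in the cultures, and *C1ra*, *C3ar1*, *Hsf4* and *Tnxb* no longer in the regions. For culture samples of equal number, deviations correlated at 0.227, 0.503, 0.066 and 0.005, against -0.330 to 0.188 for unequal numbers. The values of replicates 1 and 2 were thus above all those of unequal numbers. Region samples of equal number gave values from -0.065 to -0.044, inside the range of -0.073 to 0.064 for unequal numbers. As the labels state no pairing, the main fits used no block. Whether the culture samples were paired is not settled by these values.

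The 2D values of *C4b* and *C3* rest on few reads, the 2D replicates of *C1s1* differ widely, and 3 external samples limit the regional comparison. Genes with low CPM had been removed by the authors.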
